A study of Mus musculus with 10 samples.

Results

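Distal chromosome 2 of the mouse was examined as the 36.11 Mb stretch chr2:146000001-182113224 (mm10). Its windows were taken by position, with earlier results of these data known. It holds 3612 of the 272566 windows of 10 kb in the deposited table, beside 14600 windows in the rest of chromosome 2. Much of the stretch is the counterpart of the long arm of human chromosome 20, and chr2:152000001-154000000 was taken as the counterpart of band 20q11.21. In bins of 1 Mb the stretch gave 37 bins, of which 34 passed the filter on low read numbers, against 143 of 146 bins in the rest of the chromosome and 2541 of 2737 in the genome.

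The values were read levels from low-coverage DNA sequencing of mouse embryonic stem cells (mESC), male and of the C57/Bl6 strain, in 2i/LIF, a medium that holds cells in naive pluripotency. There were 10 libraries, 1 from each of 2 lines in each of 5 groups. These were the lines at the start of the experiment (p0), after 10 and 20 passages in Mulas2019 conditions (the published reference protocol, on gelatin with 48 h between passages), and after 10 and 20 passages in Keniry2022 conditions (suspension culture at higher density with daily passaging). Both conditions were started from each p0 line, so that the replicate number names the line, and p10 in Mulas2019 and p20 in Keniry2022 conditions are matched by days in culture. All groups shared strain, medium and derivation, no genetic change was introduced, and 2 lines a group give a weak estimate of the spread. The paper states that the lines were derived with its own culture methods before the split at p0, so the Mulas2019 groups changed protocol there.

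Libraries held 27270648 to 35354358 reads. The paper reports loss of chromosome Y in a single line, during derivation and before the conditions were compared. Reads on chromosome Y made up 0.000356% to 0.00145% in replicate 1 of p0, p10 Mulas2019, p20 Mulas2019 and p10 Keniry2022. In replicate 2 of these groups they made up 0.0377% to 0.0594%. The library labelled p20 Keniry2022 replicate 1 had 0.0441% and the library labelled replicate 2 had 0.000673%, which is the opposite order, so that the line of these libraries is in doubt. The p0 lines themselves had a median log2 difference of -0.013 over the distal bins (SD 0.038 over 34 bins). Against the rest of chromosome 2 their median distal levels were 0.452 and 0.414 higher, a gap larger than the shift of -0.032 in p20 Keniry2022 given below.

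Copy number changes of whole chromosomes or arms are a known hazard of pluripotent culture. Gain of 20q11.21 is among the changes seen most often in human pluripotent cells, and the interval holds Id1 (an inhibitor of helix-loop-helix transcription factors that acts downstream of BMP signals), Bcl2l1 (the source of the anti-apoptotic protein BCL-XL) and Dnmt3b (a de novo DNA methyltransferase). In read-depth data a gained segment gives more reads per base, and base composition also moves read depth, because amplification and sequencing favour some GC contents over others.

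The label of a 20q counterpart holds for part of the stretch. Its first bins contain Ralgapa2, Insm1, Xrn2, Nkx2-2, Pax1, Foxa2, Thbd and Cst3, and the start of the 20q11.21 counterpart interval contains Csnk2a1 and Trib3, genes whose human counterparts lie on the short arm of chromosome 20. The stretch is GC-rich and gene-dense. Its GC content was 45.52% against 41.23% in the rest of the chromosome, and it held 498 protein-coding genes, 13.8 per Mb against 9.2 per Mb. GC content of the 34 bins ran from 39.3% to 50.8% with a median of 46.0%, against a median of 41.0% in the rest. Windows without a read in any library numbered 173 of 3612.

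Because composition varies so widely within the stretch, the middle 200 bases of 2 windows of 10 kb are shown, with CpG dinucleotides in capitals. They are the window with the lowest GC content in the 2 bins that gained most in p10 Mulas2019 against p0, and the window with the highest in the 2 bins that lost most. Both are from the plus strand of GRCm38 (mm10).
AT-rich window, chr2:149114901-149115100: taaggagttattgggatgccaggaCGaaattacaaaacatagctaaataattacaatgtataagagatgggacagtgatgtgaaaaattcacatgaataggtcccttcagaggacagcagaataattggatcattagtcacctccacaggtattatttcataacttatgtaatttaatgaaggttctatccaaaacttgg
GC-rich window, chr2:167684901-167685100: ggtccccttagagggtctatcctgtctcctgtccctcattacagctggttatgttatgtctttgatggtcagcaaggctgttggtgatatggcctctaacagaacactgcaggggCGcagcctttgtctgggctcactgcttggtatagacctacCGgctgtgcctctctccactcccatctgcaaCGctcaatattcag
The AT-rich window had a GC content of 34.1% over its 10 kb and held 70 and 61 reads at p0 (replicates 1 and 2), 124 and 123 in p10 Mulas2019, 89 and 82 in p20 Mulas2019, 83 and 101 in p10 Keniry2022, and 70 and 85 in p20 Keniry2022. The GC-rich window had a GC content of 56.4% and held 175 and 161 reads at p0, 93 and 148 in p10 Mulas2019, 168 and 115 in p20 Mulas2019, 157 and 127 in p10 Keniry2022, and 167 and 168 in p20 Keniry2022. Scaled to library size, the first stood 0.99 and 0.81 above p0 on the log2 scale in p10 Mulas2019, and the second at -0.75 and -0.33.

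The promoters of the genes that make 20q11.21 of interest lie in the same GC-rich interval. RefSeq sequences (GRCm38.p6, 250 bases before to 50 after the start) matched 2 of the 3 genes, Bcl2l1 and Dnmt3b, and Id1 was the third. For Bcl2l1 the outermost of its 3 listed starts is shown, which is also the most CpG-rich, and CpG dinucleotides are again in capitals.
Bcl2l1 promoter, chr2:152831679-152831978, minus strand: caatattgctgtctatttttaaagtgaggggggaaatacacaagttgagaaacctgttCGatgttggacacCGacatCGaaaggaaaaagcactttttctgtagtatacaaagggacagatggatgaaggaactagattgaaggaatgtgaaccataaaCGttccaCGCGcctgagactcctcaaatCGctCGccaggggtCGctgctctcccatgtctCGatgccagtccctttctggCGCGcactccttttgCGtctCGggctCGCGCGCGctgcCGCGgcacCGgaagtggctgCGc
Dnmt3b promoter, chr2:153649199-153649498, plus strand: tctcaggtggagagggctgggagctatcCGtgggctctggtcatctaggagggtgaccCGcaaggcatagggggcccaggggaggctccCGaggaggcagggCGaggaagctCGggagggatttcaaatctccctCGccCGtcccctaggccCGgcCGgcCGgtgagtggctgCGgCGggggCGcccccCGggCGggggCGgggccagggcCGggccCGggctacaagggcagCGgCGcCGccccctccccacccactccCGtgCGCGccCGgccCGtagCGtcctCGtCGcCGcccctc
The Bcl2l1 promoter has a GC content of 52.3% with 22 CpG, and the Dnmt3b promoter 76.0% with 30 CpG. The other Bcl2l1 entries hold 14 CpG and 1 CpG, and 36.3% and 94.6% of all promoters have at least as many. CG reads the same on either strand. Over all 32851 promoters of this length in the table the median was 7 CpG, and 23.1% held at least 22 and 11.7% at least 30.

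The distal stretch took the largest share of chromosome 2 reads at p0 and the smallest in p10 Mulas2019. At p0 it held 22.75% (95% Wilson interval 22.7% to 22.8%) and 22.56% (22.51% to 22.62%) of chromosome 2 reads in replicates 1 and 2. In p10 Mulas2019 these shares were 19.04% and 19.08%, and in p20 Mulas2019 20.98% and 20.63%. In p10 Keniry2022 they were 21.52% and 21.04%, and in the libraries labelled p20 Keniry2022 22.20% and 22.16%. No library taken after p0 reached the share of either p0 library, and the 5 groups did not overlap. The Wilson intervals cover counting error within each library only, not the spread between lines, and the reads carry no molecular identifiers.

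The same order appeared when the stretch was set against its own chromosome. The measure was the median log2 CPM (reads per bin scaled to the library total) of the 34 distal bins minus that of the 143 other bins. At p0 it was 0.452 and 0.414. It was 0.058 and 0.080 in p10 Mulas2019, 0.285 and 0.233 in p20 Mulas2019, 0.341 and 0.283 in p10 Keniry2022, and 0.389 and 0.413 in p20 Keniry2022. The groups p20 Mulas2019 and p10 Keniry2022 overlapped by this measure, as the replicates of p20 Mulas2019 lay either side of the lower p10 Keniry2022 value, and the higher p20 Keniry2022 value of 0.413 was next to the lower p0 value of 0.414.

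**Figure D1:**
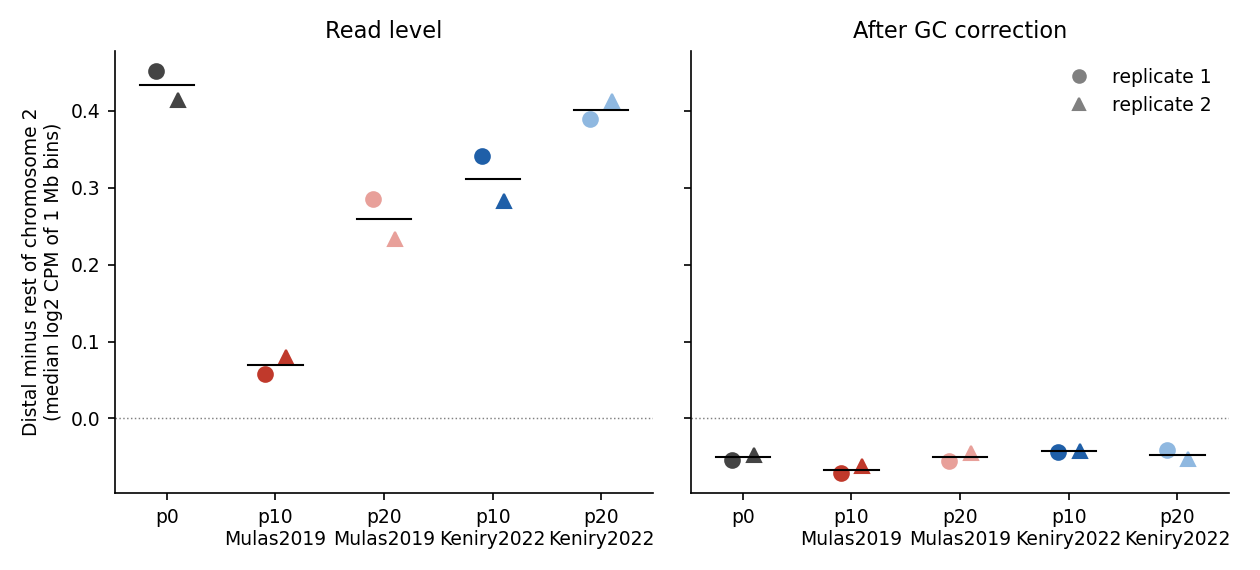
Median log2 CPM of distal bins minus that of the other bins of chromosome 2, per library, as read (left) and after subtraction of the GC curve of each library (right). Circles are replicate 1, triangles replicate 2 and black lines the mean of the 2 lines. On the left p10 Mulas2019 lies near 0.07 while p0 lies near 0.43, and on the right all 10 libraries lie between -0.071 and -0.041.

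Tested with limma beside a last part of equal length on 20 chromosomes, the distal stretch fell against the rest of chromosome 2 in p10 Mulas2019, p20 Mulas2019 and p10 Keniry2022. In p10 Mulas2019 the shift from p0 was -0.364 (SE 0.024, limma adjusted p 4.77e-07), in p20 Mulas2019 -0.174 (SE 0.024, limma adjusted p 0.000158) and in p10 Keniry2022 -0.121 (SE 0.024, limma adjusted p 0.00148). In p20 Keniry2022 it was -0.032 (95% interval -0.087 to 0.023, limma adjusted p 0.26). Such shifts were common over the genome: 85% of the 20 chromosomes passed in p10 Mulas2019, 80% in p20 Mulas2019, 70% in p10 Keniry2022 and 30% in p20 Keniry2022. Chromosome 2 ranked 5 of 20 by size in both Mulas2019 comparisons and 6 of 20 in p10 Keniry2022.

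The protocols differed as well. At p10 the distal stretch stood 0.243 higher against its chromosome in Keniry2022 than in Mulas2019 conditions (SE 0.024, limma adjusted p 2.24e-05), and at p20 0.142 higher (SE 0.024, limma adjusted p 0.00204). Matched by days in culture, p20 Keniry2022 stood 0.332 above p10 Mulas2019 (SE 0.024, limma adjusted p 1.88e-06). Passing chromosomes made up 80%, 55% and 85% of the 20 in these 3 comparisons.

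Bin by bin, 27 of the 34 distal bins passed in p10 Mulas2019 against p0, 25 lower and 2 higher. The test was limma's TREAT against a minimum fold of 1.1, fitted on all bins of the genome, with a Benjamini-Hochberg threshold of 0.05. Over all 2541 bins 58.8% passed, 25.7% lower and 33.1% higher, so that the distal share of 79.4% was above the genome and consisted mostly of losses. In the rest of chromosome 2, 78 of 143 bins passed, 53 higher and 25 lower. The median log2FC was -0.28 over the distal bins, 0.04 over the rest of the chromosome and 0.01 over all bins. In replicate 1, 31 of the 34 distal bins were below their p0 level and in replicate 2, 32 were.

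In the other comparisons with p0 none of the distal bins passed. In p20 Mulas2019 limma called 0 of 34 and voom likewise 0, where 8.89% (limma) and 7.12% (voom) of all bins passed. At an unadjusted p below 0.05 it was 7 (limma) and 10 (voom) of 34, beside 544 and 571 of all 2541 bins. In p10 Keniry2022 0 passed with either tool, beside 4.21% (limma) and 0.157% (voom) of all bins, and 0 had an unadjusted p below 0.05 with either, beside 347 and 340 of 2541. In p20 Keniry2022 0 passed by each of these measures, beside 0% of all bins with either tool and 20 (limma) and 14 (voom) of 2541 at an unadjusted p below 0.05. The minimum fold decided these counts. With no minimum 29 of 34 bins passed in p20 Mulas2019 (27 lower), 30 in p10 Keniry2022 (28 lower) and 5 in p20 Keniry2022 (all lower). Over all bins 80.6%, 73.4% and 17.4% passed in these fits, beside distal shares of 85.3%, 88.2% and 14.7%, while 36.9%, 33.8% and 3.31% of all bins were lower. The genome shares at the minimum fold depended on single libraries. Without either p0 library they were 0% in p20 Mulas2019 and p10 Keniry2022, without p20 Mulas2019 replicate 2 the first was 1.53%, and without p10 Keniry2022 replicate 2 the second was 0%.

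Between protocols at p10, 14 of the 34 distal bins were higher in Keniry2022 and none were lower, beside 29.3% of all bins in either direction and 8.03% higher. This count rested on single libraries. Without p10 Keniry2022 replicate 1 it was 2.94% of the distal bins and without p10 Mulas2019 replicate 1 23.5%, in place of 41.2%. At p20 limma and voom each called 0, and 0 distal bins had an unadjusted p below 0.05 by either tool, beside 0% of all bins called and 6 (limma) and 10 (voom) of 2541 at an unadjusted p below 0.05. Matched by days, 22 of 34 passed between p20 Keniry2022 and p10 Mulas2019, 21 higher and 1 lower, beside 49.3% of all bins, 19.6% higher and 29.7% lower.

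**Figure D2:**
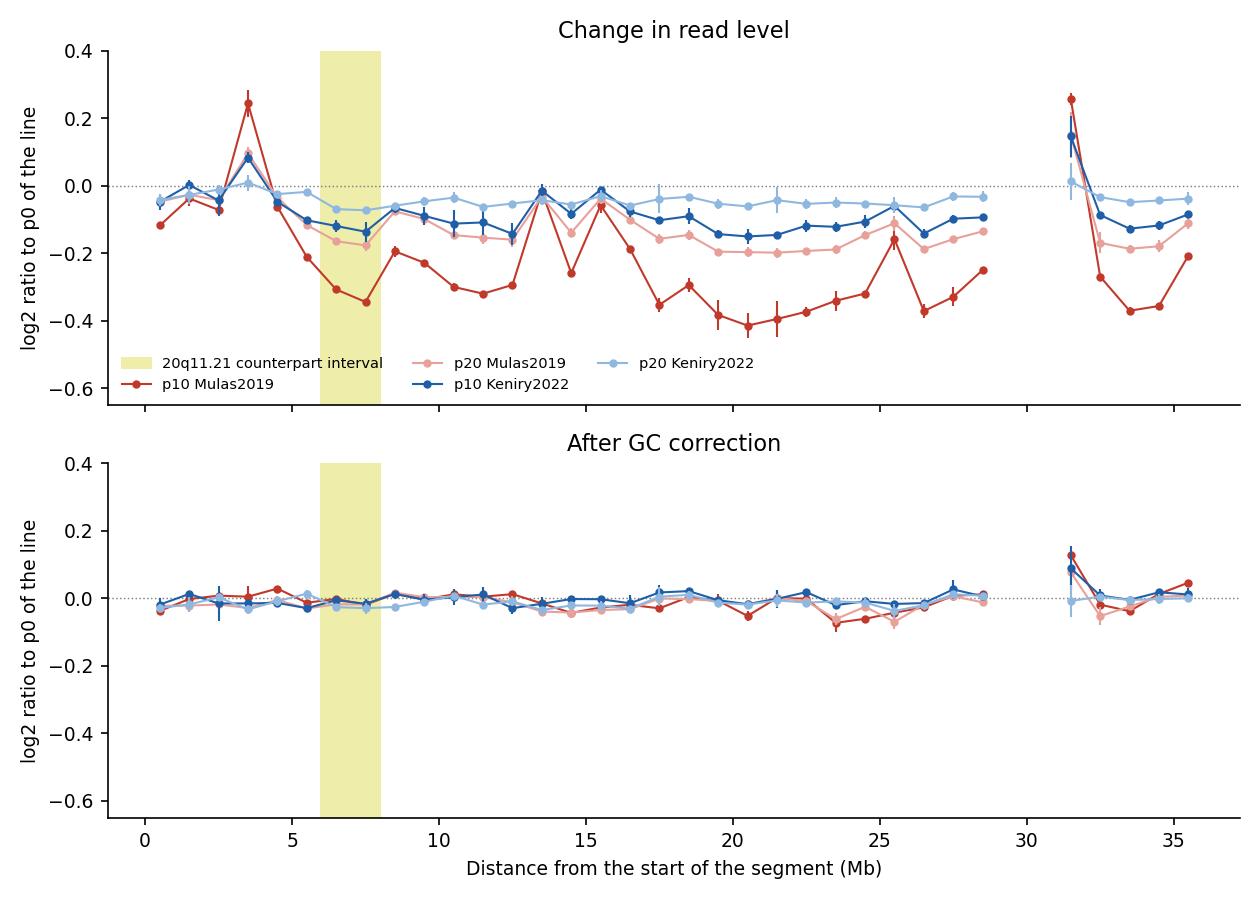
Change of each distal bin along the segment, as log2 ratio to p0 with the same replicate number, as read (top) and after GC correction (bottom). Points are means of the 2 lines, vertical lines join the 2 values, the band is the 20q11.21 counterpart interval, and bins that failed the filter are left out. On the top p10 Mulas2019 reaches farthest from 0 in both directions, and on the bottom the point that stands out is the bin 31 Mb from the start, at 0.13 and 0.12 in that group.

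The bins at either end of the range show how the change ran with composition. The largest gain in p10 Mulas2019 was at chr2:177000001-178000000 (GC content 40.3%, 14 protein-coding genes of a zinc finger cluster), with a log2FC of 0.26 (SE 0.054, limma adjusted p 0.0404). It held only 1685 to 2494 reads a library, and passed in 6 of the 10 refits without 1 library. It lost its call without p0 replicate 1, without p10 Mulas2019 replicate 2 and without either p20 Mulas2019 library, with log2FC of 0.20, 0.22, 0.26 and 0.26. The next was chr2:149000001-150000000, the most AT-rich of the distal bins (GC content 39.3%, 5 protein-coding genes), with 10110 and 10440 reads at p0 and 11009 and 13868 in p10 Mulas2019. Its log2FC was 0.24 (SE 0.025, limma adjusted p 0.00122).

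The largest losses lay next to each other. At chr2:166000001-167000000 (GC content 49.3%, 6 protein-coding genes) reads were 18318 and 17791 at p0 and 11971 and 15815 in p10 Mulas2019, a log2FC of -0.41 (SE 0.030, limma adjusted p 3.08e-06). At chr2:167000001-168000000 (GC content 50.8%, 14 protein-coding genes) the log2FC was -0.39 (SE 0.030, limma adjusted p 6.15e-06). These 4 bins were chosen by this comparison, and the other comparisons share its p0 or its p10 Mulas2019 libraries, so their values there are a description. In p20 Mulas2019, p10 Keniry2022 and p20 Keniry2022 against p0 the AT-rich bin from 149000001 had 0.10, 0.08 and 0.01, the bin from 177000001 had 0.15, 0.15 and 0.01, the bin from 166000001 had -0.20, -0.15 and -0.06, and the bin from 167000001 had -0.20, -0.15 and -0.04. None of these 12 values passed.

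Between protocols the same GC-rich bins passed at p10, in a comparison that uses the p10 Mulas2019 libraries by which they were chosen. The bin from 166000001 had 0.26 (limma adjusted p 0.00386) and the bin from 167000001 0.25 (limma adjusted p 0.00821), while the bins from 149000001 and 177000001 had -0.16 and -0.11 and did not pass. Neither GC-rich bin passed without p10 Keniry2022 replicate 1 (0.22 and 0.21), and the latter did not pass without p10 Mulas2019 replicate 1 (0.23). Matched by days they had 0.35 and 0.35 (limma adjusted p 3.41e-05 and 3.97e-05), the bin from 149000001 had -0.23 (limma adjusted p 0.00291), and the bin from 177000001 had -0.24 (limma adjusted p 0.0701). At p20 the values were 0.14, 0.16, -0.09 and -0.14 in the order 166000001, 167000001, 149000001 and 177000001, and none passed.

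Across the distal bins the change from p0 followed GC content. In p10 Mulas2019 Pearson's r between GC content and log2 ratio was -0.941 and -0.911 over the 34 bins (replicates 1 and 2), with slopes of -0.058 and -0.046 per percentage point. In p20 Mulas2019 r was -0.882 and -0.900, and in p10 Keniry2022 -0.780 and -0.881. The libraries labelled p20 Keniry2022 replicates 1 and 2 had r of -0.804 and 0.128 with slopes of -0.009 and 0.001. Set against the p0 library of the other number, since their line is in doubt, they had r of 0.248 and -0.834 with slopes of 0.002 and -0.010. These are descriptions across neighbouring bins of the same libraries, which are not independent. In the 143 bins of the rest of chromosome 2, r was -0.955 and -0.928 in p10 Mulas2019.

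**Figure D3:**
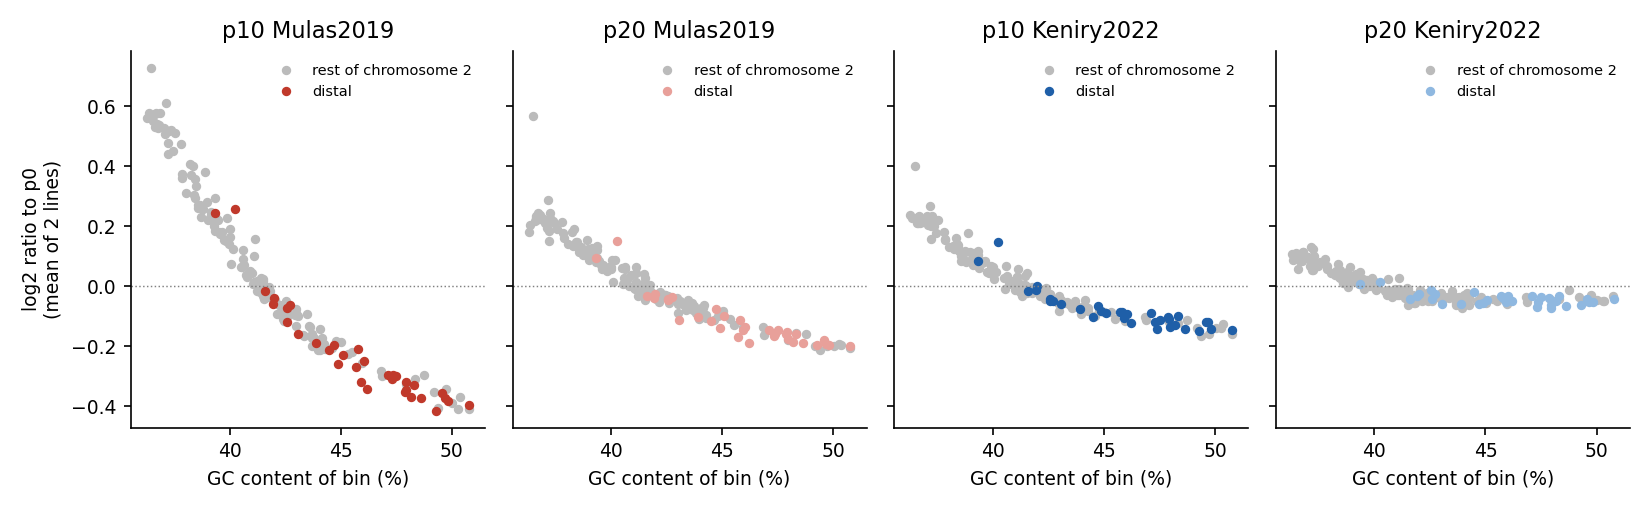
Log2 ratio to p0 (mean of the 2 lines) against GC content for the 34 distal bins (coloured) and the 143 other bins of chromosome 2 (grey), 1 panel a group. Most distal bins lie within the band of the other bins. The one from 177000001 (GC content 40.3%) lies above bins of nearly the same GC content in p10 Mulas2019, p20 Mulas2019 and p10 Keniry2022. The slope is steepest in p10 Mulas2019 and flattest in p20 Keniry2022.

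Bins of like composition were lower than at p0 inside and outside the stretch, with overlapping ranges. Between 42% and 47% GC there were 14 distal bins (median GC content 44.8%) and 41 bins in the rest of chromosome 2 (median 43.6%). In p10 Mulas2019 the distal bins had median changes of -0.211 and -0.210 and the others -0.149 and -0.167, with ranges of -0.370 to -0.048 and -0.293 to -0.031 in replicate 1. In p10 Keniry2022 the medians were -0.088 and -0.080 against -0.049 and -0.072, in p20 Mulas2019 -0.101 and -0.117 against -0.070 and -0.067, and in p20 Keniry2022 -0.049 and -0.033 against -0.044 and -0.039. In the library labelled p20 Keniry2022 replicate 2 the distal median was thus the higher. The GC range was chosen after the data were examined, and the distal bins within it were still the more GC-rich.

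After a GC curve was subtracted from each library, 0 of the 34 distal bins passed in any of the 7 comparisons by limma, and none of the unadjusted p-values was below 0.05 (0 of 34 each time, beside 0 to 8 of all 2541 bins). Voom was not run on corrected values. Over all bins 0.0787% passed in p10 Mulas2019 against p0 and in p20 Keniry2022 against p10 Mulas2019, and 0% in the other 5. The 4 end bins then had log2FC of 0.005 (149000001, SE 0.018), 0.128 (177000001, SE 0.056), -0.052 (166000001, SE 0.016) and 0.001 (167000001, SE 0.015) in p10 Mulas2019 against p0. The SD of the change over the 34 bins went from 0.182 and 0.149 to 0.040 and 0.035 in p10 Mulas2019.

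The shift against the rest of the chromosome shrank with it. In p10 Mulas2019 it was -0.016 (95% interval -0.032 to -0.000, limma adjusted p 0.0718), in p20 Mulas2019 0.001 (-0.015 to 0.016, limma adjusted p 0.944), in p10 Keniry2022 0.008 (-0.007 to 0.024, limma adjusted p 0.432) and in p20 Keniry2022 0.004 (-0.012 to 0.020, limma adjusted p 0.801). Of the 20 chromosomes 15%, 0%, 0% and 20% passed in these comparisons. If p0 cells hold 2 copies, these intervals correspond to shares of cells with 1 extra copy of the stretch of -4.38% to -0.0333%, -2.11% to 2.29%, -1.03% to 3.38% and -1.67% to 2.73%, where a negative share stands for fewer copies. The intervals rest on the spread between these libraries. With the segment started at 152000001 instead, the corrected shift in p10 Mulas2019 was -0.019 and passed (limma adjusted p 0.0465), as did 45% of the 20 chromosomes, all lower.

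A small difference between protocols remained at p10. After the GC correction the stretch stood 0.024 higher in Keniry2022 than in Mulas2019 conditions (95% interval 0.009 to 0.040, limma adjusted p 0.0282), beside 25% of the 20 chromosomes, and it was higher in Keniry2022 in both lines. It passed in 4 of the 10 refits without 1 library and failed without any library of p0, p10 Mulas2019 or p10 Keniry2022, with values of 0.020 to 0.029 and adjusted p of 0.0197 to 0.181 over the refits. With the p20 Keniry2022 numbers crossed the adjusted p was 0.0182. At p20 the difference was 0.003 (-0.013 to 0.019, limma adjusted p 0.864, 0% of chromosomes) and matched by days 0.020 (0.004 to 0.036, limma adjusted p 0.117, 0% of chromosomes).

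Across chromosomes the shift also ran with base composition. The last 36.11 Mb of chromosomes 4, 15 and 5 exceeded the rest of their chromosomes in GC content by 6.56, 5.74 and 5.47 percentage points, and chromosome 2 came next with 4.29. Over 20 chromosomes, which share libraries and depth, Pearson's r between the difference in median bin GC content and the shift was -0.957 in p10 Mulas2019, -0.962 in p20 Mulas2019 and -0.934 in p10 Keniry2022 against p0. A line through the 19 others gave -0.359 for chromosome 2 in p10 Mulas2019 (SD around the line 0.069), where -0.364 was measured. It gave -0.174 in p20 Mulas2019, where -0.174 was measured, and -0.148 in p10 Keniry2022 (SD 0.035), where -0.121 was measured. For Keniry2022 against Mulas2019 conditions at p10, r was 0.958 and the line gave 0.211 (SD 0.040), where 0.243 was measured. In p20 Keniry2022 against p0 r was -0.777, and the line gave -0.063 (SD 0.027), where -0.032 was measured. Between protocols at p20 r was 0.969, and the line gave 0.111 (SD 0.018), where 0.142 was measured, so that both lay more than 1 SD from it. Matched by days, the line gave 0.296 (SD 0.047), where 0.332 was measured.

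**Figure D4:**
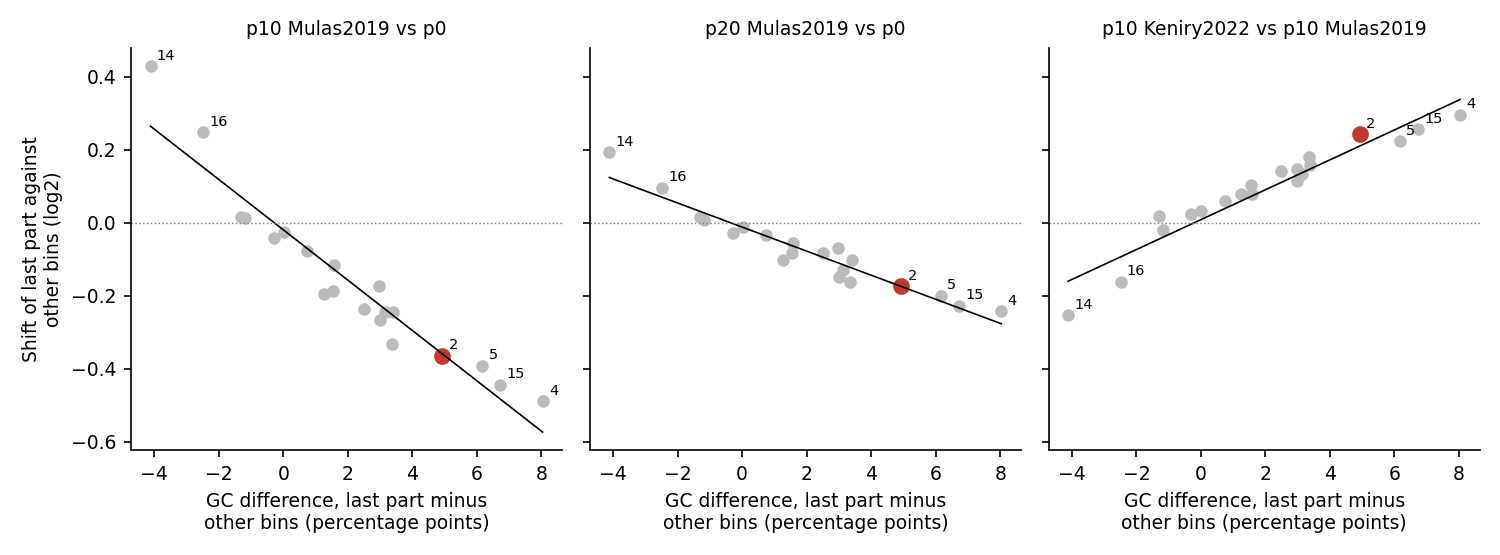
Shift of the last 36.11 Mb of each of 20 chromosomes against its other bins (log2, difference of group means) against the difference in median bin GC content, in 3 comparisons (p10 and p20 Mulas2019 against p0, and Keniry2022 against Mulas2019 at p10). Red marks chromosome 2 and the line is fitted to the 19 other chromosomes. Chromosome 2 lies on the line in the first and second panels and a little above it in the last, between the GC-poorer chromosomes and chromosomes 5, 15 and 4.

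The 20q11.21 counterpart interval was lower in p10 Mulas2019 than at p0, as was most of the stretch. Its bins from 152000001 and 153000001 hold 34 and 23 protein-coding genes and have GC contents of 47.3% and 48.0%. Reads in the first were 17791 and 17487 at p0, 12853 and 16313 in p10 Mulas2019, 18342 and 14505 in p20 Mulas2019, 17098 and 16842 in p10 Keniry2022, and 18065 and 18068 in p20 Keniry2022. Scaled to library size the level was highest at p0. In p10 Mulas2019 against p0 the bins had log2FC of -0.31 (SE 0.021, limma adjusted p 1.2e-05) and -0.34 (SE 0.022, limma adjusted p 2.77e-06), and both passed in all 10 refits without 1 library. In p20 Mulas2019 they had -0.16 and -0.18, in p10 Keniry2022 -0.12 and -0.14, and in p20 Keniry2022 -0.07 and -0.07, and none passed.

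Between protocols at p10 the interval bins had 0.19 (limma adjusted p 0.0653) and 0.21 (limma adjusted p 0.016). With the line as a fixed replicate block the first also passed (0.19, adjusted p 0.0304). The second did not pass without either p10 Mulas2019 library (0.21 and 0.21) or without p10 Keniry2022 replicate 1 (0.17), and the first passed without p10 Keniry2022 replicate 2 (0.22, adjusted p 0.0159). Matched by days they had 0.24 and 0.27 (limma adjusted p 0.000942 and 0.000123), and at p20 0.10 and 0.10 with no call. After GC correction the values for p10 Mulas2019 against p0 were -0.002 and -0.019.

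The mean level of the interval was above that of the other distal bins in every library, by 0.1225 and 0.1121 at p0 and by 0.0819 to 0.1141 later. The change from p0 in this margin was -0.008 and -0.030 in p10 Mulas2019, -0.016 and -0.022 in p20 Mulas2019, -0.020 and -0.025 in p10 Keniry2022, and -0.021 and -0.028 in p20 Keniry2022, with a counting error of 0.011 to 0.012. After GC correction it was 0.0190 and -0.0057, 0.0045 and -0.0092, -0.0022 and -0.0185, and -0.0131 and -0.0215 in the same order, so that 2 of the 8 libraries were above p0. The highest, p10 Mulas2019 replicate 1, corresponds to an extra copy of the interval in 2.65% of cells, or 5.98% at the upper 95% limit of the counting error. Over the 8 libraries that limit ran from 0.0137% to 5.98%. The lowest limit, in p20 Keniry2022 replicate 2, rests on the doubted replicate numbers. Against the p0 library of the other number the p20 Keniry2022 changes were -0.010 and -0.038 as read and -0.0196 and -0.0150 after GC correction, with limits of 0.272% and 0.917%. The counting error leaves out the spread between bins, which was 0.016 to 0.040 (SD of the corrected change over the 34 bins).

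The 3 named genes of the interval were measured through the windows covering each gene body and 50 kb on either side. Values are relative to the rest of chromosome 2 and to p0 of the same replicate number. For p20 Keniry2022 that number is in doubt, and gene values, here and in the lists below, were not recomputed against the other p0 library. Id1 (chr2:152736251-152737410, plus strand) lies where GC content is 49.3% over 11 windows. It had 2109 and 2044 reads at p0 and log2 ratios of -0.420 and -0.428 in p10 Mulas2019, -0.187 and -0.236 in p20 Mulas2019, -0.146 and -0.171 in p10 Keniry2022, and -0.097 and -0.080 in p20 Keniry2022, each with a counting error of 0.044 to 0.049. All 8 values were below 0, and the p10 Mulas2019 values lay farthest from it. After GC correction they lay between -0.045 and 0.051, within about a counting error of 0.

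Bcl2l1 (chr2:152780668-152831728, minus strand, GC content 45.8% over 16 windows) had 2879 and 2884 reads at p0. Its log2 ratios were -0.277 and -0.340 in p10 Mulas2019, -0.147 and -0.150 in p20 Mulas2019, -0.154 and -0.175 in p10 Keniry2022, and -0.102 and -0.108 in p20 Keniry2022, with counting errors of 0.037 to 0.041. Of the 3 loci it is the least GC-rich, and it had the smallest fall in p10 Mulas2019 but the largest of the 3 in both Keniry2022 groups, by less than the counting error against Id1. After GC correction its values ran from -0.064 to 0.068, the lowest in the library labelled p20 Keniry2022 replicate 2 and the highest in p10 Mulas2019 replicate 1.

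Dnmt3b (chr2:153649450-153687730, plus strand, GC content 46.8% over 15 windows) had 2633 and 2640 reads at p0. Its log2 ratios were -0.340 and -0.378 in p10 Mulas2019, -0.205 and -0.165 in p20 Mulas2019, -0.091 and -0.133 in p10 Keniry2022, and -0.056 and -0.075 in p20 Keniry2022. After GC correction they ran from -0.033 to 0.045. Windows of Id1 and Bcl2l1 overlap, so these loci share reads. In bins of 100 kb tested with limma's TREAT, the bin with the Bcl2l1 start did not pass in p10 Mulas2019 against p0 (-0.19, limma adjusted p 0.18). Those with the starts of Id1 (-0.33, limma adjusted p 0.000264) and Dnmt3b (-0.276, limma adjusted p 0.00366) did.

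**Figure D5:**
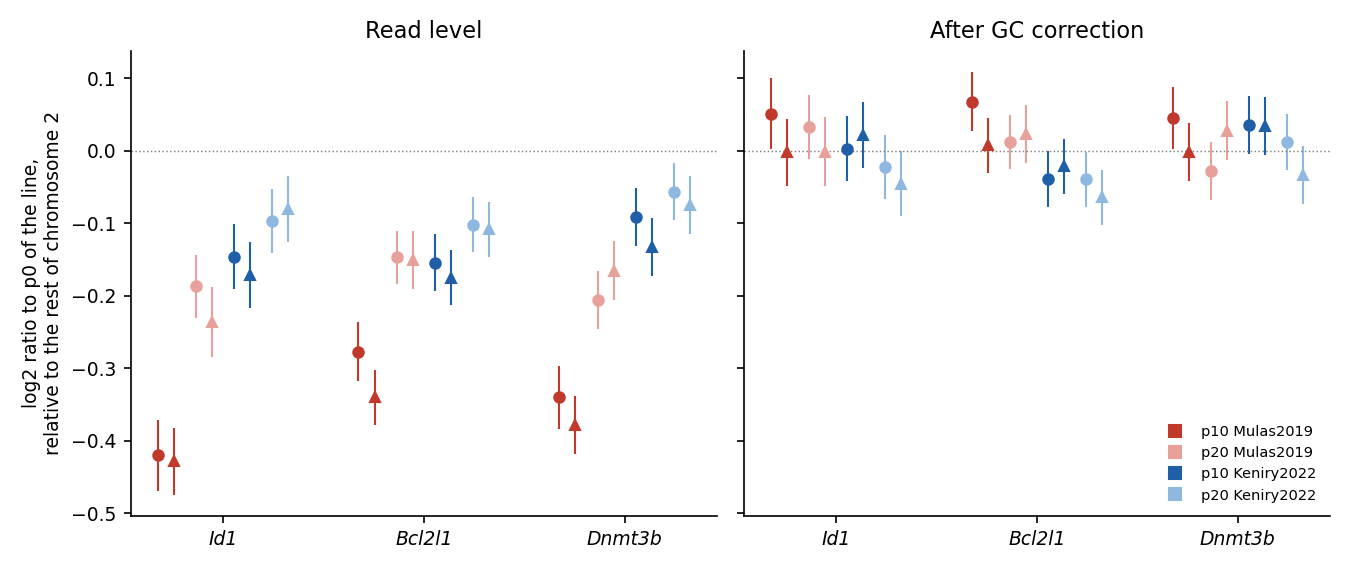
Windows around each gene, as log2 ratio to p0 with the same replicate number, for the loci of Id1, Bcl2l1 and Dnmt3b, relative to the rest of chromosome 2, as read (left) and after GC correction (right). Circles are replicate 1, triangles replicate 2, and bars are 1 counting error. On the left every value is below 0 and p10 Mulas2019 is lowest at each gene, and on the right the values lie between -0.064 and 0.068.

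The wider lists of genes on the stretch had mostly negative values too. Of 48 listed genes, 46 and 47 were more than 2 counting errors below p0 in p10 Mulas2019 (replicates 1 and 2) and none above. In p20 Mulas2019 43 and 40 were, in p10 Keniry2022 28 and 41, and in p20 Keniry2022 19 and 15, with 1 above. Of the 1820 protein-coding genes of chromosome 2 with at least 100 reads on average, measured in the same way, 66.4% and 68% were below by that margin in p10 Mulas2019, 53.8% and 54.3% in p20 Mulas2019, 42.9% and 55.5% in p10 Keniry2022, and 15.5% and 8.35% in p20 Keniry2022. Among the 475 such genes of the stretch the shares were 88.4% and 90.3% in p10 Mulas2019, 79.6% and 78.5% in p20 Mulas2019, 60% and 74.9% in p10 Keniry2022, and 24.6% and 12.6% in p20 Keniry2022, and the medians were -0.369 and -0.343, -0.167 and -0.178, -0.104 and -0.143, and -0.046 and -0.030. The medians of the 48 were -0.360 and -0.365, -0.162 and -0.166, -0.093 and -0.161, and -0.073 and -0.063. After GC correction the medians lay between -0.022 and 0.029, with 0 to 3 genes below and 1 to 7 above by that margin. Over the 1820 genes the corrected shares were 1.92% to 7.2% below and 4.73% to 14% above. Neighbouring genes share windows.

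The genes at the ends of each list are given for p10 Mulas2019 replicate 1 first, and several differed in replicate 2. Of the 34 and 23 protein-coding genes in the 2 bins of the 20q11.21 counterpart interval, 18 were listed. All 18 were below p0 in every one of the 8 later libraries. After GC correction 6 and 9 of the 18 were below in p10 Mulas2019, 8 and 6 in p20 Mulas2019, 4 and 9 in p10 Keniry2022, and 9 and 16 in p20 Keniry2022. Over the 475 measured genes of the whole stretch, 70.9% to 92.6% were below p0 as read and 32.6% to 46.1% after GC correction, depending on the library. As read, in p10 Mulas2019 replicate 1 the 18 interval genes ran from -0.455 at Hm13 (a signal peptide peptidase) to -0.260 at Tpx2 (a spindle assembly factor), and in replicate 2 from -0.428 at Id1 to -0.293 at Foxs1. The 8 pluripotency and chromatin genes had a median of -0.415 in replicate 1, the lowest being Ctcfl (a germline relative of CTCF) at -0.583 and the highest Dnmt3b at -0.340, while in replicate 2 they ran from -0.440 at Ctcfl to -0.369 at Zfp217. The 13 cell cycle and growth genes ran from -0.529 at Rae1 (an mRNA export factor) to -0.188 at Rbl1 (a relative of the retinoblastoma protein), and in replicate 2 from -0.456 at Aurka (a mitotic kinase) to -0.171 at Plcg1. The Ctcfl locus has a GC content of 50.4% and the Rbl1 locus 44.0%.

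The 4 cell survival genes had a median of -0.374 in p10 Mulas2019 replicate 1, from -0.419 at Trib3 (a stress-induced pseudokinase) to -0.277 at Bcl2l1, and in replicate 2 the lowest was Dido1 at -0.460. The 4 imprinted genes ran from -0.493 at Mcts2 to -0.285 at Gnas, the locus of the stimulatory G protein alpha subunit, and in replicate 2 the lowest was Blcap at -0.405. The 10 genes with human counterparts on the short arm had the medians nearest to 0, -0.280 and -0.228. Among them Xrn2 (a nuclear exonuclease) had 0.021 and 0.040, and Cst3 (cystatin C) had 0.034 in replicate 1 and -0.198 in replicate 2. The Xrn2 locus has a GC content of 39.8%, the lowest of the 48. The stretch from 146000001 to 152000000, where most of these genes lie, had a GC content of 42.3% and a median bin change of -0.052 and -0.082 in p10 Mulas2019, against -0.311 and -0.290 over the 26 bins after the interval (GC content 46.1%). After GC correction the 2 stretches had 0.007 and -0.008, and -0.018 and -0.008.

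A cluster of zinc finger genes interrupts the stretch. The bins from 175000001 and 176000001 held 527 to 704 and 117 to 168 reads a library and failed the filter. Of their 100 windows each, 75 and 76 had no read in any library, and 10.7% and 24.3% of their bases are unknown in the reference. All 17 protein-coding genes of the first and 11 of 12 in the second carry Zfp or Gm names, as do all 14 of the bin from 177000001, which passed the filter. In that bin the corrected change in p10 Mulas2019 was 0.13 and 0.12, the highest of the 34 bins in both lines, and in p10 Keniry2022 0.15 and 0.02. Reads of near-identical genes can be lost or misplaced in mapping, and how far this moved the bin was not tested. The last bin, from 182000001, is 88.3% unknown bases and held 86 to 148 reads.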

How the data were processed

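The submitters' processing notes name bcl2fastq, Bowtie2 and the build mm10, without stated versions. The authors deposited 1 table of log2 values in windows of 10 kb. The deposited log2 values are logs of whole reads scaled to the largest library total, with 0.9 reads for empty windows. Within 0.1 reads, 100.0% of the values came back as whole reads. The methods describe counting with GenomicAlignments in 1 Mb bins, blacklisted regions excluded, whereas the table has 10 kb windows and excluded none, and its counting program is not stated apart from this. Window ends matched GRCm38 for all 21 chromosomes.

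Reads were summed in bins of 1 Mb as CPM, and bins under 0.1 of the median bin were removed. Bins were tested with limma 3.58.1 (trended prior, TREAT, statmod 1.5.0, R 4.3.3) over all 10 libraries with 5 group coefficients and the line as a random block (duplicateCorrelation, consensus correlation 0.132 for bins and 0.049 for chromosome shifts), since the deposited unit is log2. Voom on recovered reads was an alternative. For the GC correction, a loess fit (span 0.3) of each library's log2 CPM against bin GC content, made on autosomes, was subtracted. The script was tested on simulated data. Genes were placed with GENCODE vM21 and RefSeq names, and 48 of 48 listed genes were found. Python 3.11.15 with numpy 2.4.6, pandas 2.3.3 and matplotlib 3.10.9 was used.

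The stretch, its intervals and the gene lists were chosen with earlier results of these data known. Named bins were the 2 highest and the 2 lowest distal bins by log2FC in p10 Mulas2019 against p0, and the 2 bins of the 20q11.21 counterpart interval. The pairing comes from the design of the study, since each line was split at p0. The difference between replicates 1 and 2, correlated between groups over GC-corrected autosomal bins, gave r of 0.010 to 0.525 without p20 Keniry2022 and -0.687 to -0.039 with it. The crossed numbers of p20 Keniry2022 were therefore an alternative. Replicates are separate lines, and p-values measure the spread between these libraries.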

Additional observations from a re-analysis of the deposited data

Results flagged for a closer look

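The change of the distal stretch against the rest of chromosome 2 differed between the conditions, tested in the same limma fit. At p10 it was 0.243 higher in Keniry2022 than in Mulas2019 (log2, limma adjusted p 2.24e-05), and at p20 0.142 higher (limma adjusted p 0.00204), in both lines each time. After GC correction the p10 difference was 0.024 (limma adjusted p 0.0282) and the p20 difference 0.003 (limma adjusted p 0.864).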

How the results depend on the processing

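Depth gave 11321 to 14567 reads per median bin, and each group had 2 lines. Alternatives to the GC correction named here as combined with crossed numbers, a later segment start or left-out libraries, and the GC slope and interval change of p20 Keniry2022 against the other p0 library, were added after the data were examined. The causes of the changes below were not tested beyond what each alternative does by construction.

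The percent of distal bins that passed was 79.4, 0, 0, 0, 41.2, 0 and 64.7 in the comparisons p10 Mulas2019, p20 Mulas2019, p10 Keniry2022 and p20 Keniry2022 against p0, Keniry2022 against Mulas2019 at p10 and at p20, and p20 Keniry2022 against p10 Mulas2019. It became 0 in all of them with the GC correction, with the GC correction and a fixed replicate block, and with a minimum log2FC of 1.1. With no minimum change it was 85.3, 88.2, 14.7, 88.2 and 79.4 in the second to the sixth, beside 80.6, 73.4, 17.4, 81.7 and 63.7 of all bins. In bins of 100 kb it was 1.18 in p20 Mulas2019 against p0 and 19.4 between protocols at p10. Over the fits without 1 library the lowest and highest were 70.6 and 79.4, 0 and 2.94, 0 and 0, 0 and 0, 2.94 and 50, 0 and 0, and 64.7 and 67.6. Without p20 Mulas2019 replicate 1 the p20 Mulas2019 value was 2.94. The remaining 61 of 77 values stayed within 1.5 times, with the fixed replicate block, without a block and with crossed numbers among them.

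The shift against the rest of chromosome 2 kept its direction and call in all 70 fits without 1 library, with ranges of -0.384 to -0.343, -0.202 to -0.146, -0.150 to -0.092, -0.052 to -0.012, 0.213 to 0.272, 0.114 to 0.170 and 0.314 to 0.349 in the same order. With the GC correction it was -0.016, 0.001, 0.008 and 0.004 against p0, 0.003 between protocols at p20 and 0.020 matched by days, and the last 3 of the values against p0 had turned direction. A fixed replicate block or crossed numbers with the GC correction gave the same values, -0.016 first, and lost the same calls. Between protocols at p10 the call was kept in each of these. With the later segment start and the GC correction the values were 0.000, 0.007 and 0.002 in p20 Mulas2019, p10 Keniry2022 and p20 Keniry2022, again turned, with 0.002 between protocols at p20 and 0.022 matched by days. From summed reads p20 Keniry2022 against p0 passed at -0.040 (limma adjusted p 0.0136).

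The interval against the other distal bins had mean changes of -0.019, -0.019, -0.022, -0.024, -0.003, -0.006 and -0.005. With the GC correction these were 0.007, -0.002, -0.010, -0.017, -0.017, -0.015 and -0.024. From summed reads they were -0.082, -0.044, -0.039, 0.043, 0.016 and 0.054, with p20 Keniry2022 against p0 moving by less than its SD. Without 1 library they ran from -0.035 to -0.003, -0.027 to -0.011, -0.030 to -0.014, -0.033 to -0.016, -0.019 to 0.013, -0.014 to 0.003 and -0.021 to 0.011.

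Among the named bins the GC correction turned 15 of 42 values. The bin from 149000001 had -0.028, -0.015 and -0.033 in p20 Mulas2019, p10 Keniry2022 and p20 Keniry2022 against p0, and the bin from 177000001 -0.007 in p20 Keniry2022. The bin from 167000001 had 0.001 in both Mulas2019 comparisons and -0.002, -0.007 and -0.007 between protocols, and the bin from 166000001 -0.001 between protocols at p20. The interval bins had -0.004, -0.009, -0.024, -0.011 and -0.010 between protocols. Without 1 library the p20 Keniry2022 values ran from -0.042 to 0.068 in the bin from 177000001 and from -0.009 to 0.028 in the bin from 149000001.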
